A study of Mus musculus with 3 samples.

Results

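The let-7 family guide strands are the 9 mature mouse miRNAs mmu-let-7a-5p, mmu-let-7b-5p, mmu-let-7c-5p, mmu-let-7d-5p, mmu-let-7e-5p, mmu-let-7f-5p, mmu-let-7g-5p, mmu-let-7i-5p and mmu-miR-98-5p, written below without the species prefix. They were chosen by name, not by their values, and all 9 were found among the 899 mature miRNAs of the tables. The study sequenced RNA from mouse cultures on the way from bone marrow macrophages to osteoclasts, the cells that resorb bone, and presents it as RNA carried in exosomes, small vesicles shed by cells. Marrow came from C57BL/6 mice at 11 weeks of age, and the sources used here do not give the number of animals behind a library. BMM, the macrophages, were floating marrow cells treated with the growth factor M-CSF at 50 ng/mL for 72 h. Preosteoclasts (pOC) were made from BMM with M-CSF at 30 ng/mL and the osteoclast-inducing cytokine RANKL at 100 ng/mL over 24 h. Mature osteoclasts (mOC) received these doses for at least 72 h. All cultures, BMM included, received the bisphosphonate alendronate at 500 μM for 12 h, a step the labels describe as a way to obtain apoptotic bodies, and the labels do not say which vesicle fraction was sequenced. Every stage is a single library, and differences between stages therefore lack a replicate check.

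let-7 miRNAs are made from hairpin precursors, from which a 5p strand (the usual guide) and a 3p strand (the usual passenger) are cut. The guide strand finds target messenger RNAs by pairing through its seed, the bases near its 5′ end, and lowers their output. In mammals the family is scarce in stem cells and abundant in differentiated cells, and the protein LIN28 holds its maturation back by binding the hairpin loop. Known mammalian targets include the growth regulators Hmga2, Myc and the Ras genes.

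The mature sequences (RefSeq, GRCm38.p6) are shown because the members are so alike that their counts can be confused. Capitals mark the seed, bases 2 to 8.
let-7a-5p: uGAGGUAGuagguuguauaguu
let-7b-5p: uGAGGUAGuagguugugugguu
let-7c-5p: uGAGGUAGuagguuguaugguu
let-7d-5p: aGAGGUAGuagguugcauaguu
let-7e-5p: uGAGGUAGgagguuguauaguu
let-7f-5p: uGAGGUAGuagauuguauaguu
let-7g-5p: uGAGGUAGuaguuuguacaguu
let-7i-5p: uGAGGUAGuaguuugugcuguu
miR-98-5p: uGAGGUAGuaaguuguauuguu
All 9 shared the seed GAGGUAG and were 22 bases long, so their counts were compared without a length correction. Of the 22 positions, 14 held the same base in every member. Of the 36 pairs, 4 differed by 1 base only, and the most distant pair differed by 6. How reads that match several members were assigned is not stated in the sources used here.

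The pOC library held 5430426 counts assigned to miRNAs and the mOC library 7017707. The tables also hold a library headed R. No label explains that letter, so its counts were not used and it enters only through fold changes that the authors deposited. The myeloid markers miR-223-3p, miR-142a-3p and miR-142a-5p, summed, stood at 5467 CPM (counts per 1000000 assigned counts) in pOC and 9215 CPM in mOC, and none of the 3 was at 0. Markers of other sources were present as well. The 3 erythroid markers summed to 670.5 CPM in pOC and 245.5 CPM in mOC, the 4 stromal markers to 1054 and 992 CPM with 3 of the 4 called lower in mOC by the 2-fold rule given below and miR-199a-3p at 895 and 953 CPM, and the liver and serum marker miR-122-5p stood at 2042 and 410 CPM. The sums for pOC and mOC were 52.7 and 122.8 CPM for 3 epithelial markers, 141.4 and 81.5 CPM for the endothelial marker, 3.13 and 2.85 CPM for the lymphoid marker, 16.9 and 7.70 CPM for 2 muscle markers, and 13.3 and 22.5 CPM for the neural marker found, 1 of 2 listed. No marker found was at 0 in either library. Their part in the let-7 values below was not tested.

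The family took a larger share of the mOC library. Its 9 members summed to 11.2% of the pOC counts (11.20 to 11.25%, 95% interval by the exact Clopper-Pearson method) and to 17.6% in mOC (17.57 to 17.62%), a 1.57-fold difference (1.56 to 1.57). Such intervals reflect counting error alone and say nothing of how cultures vary, and without molecular identifiers reads cannot be taken as independent molecules. Without let-7i-5p, the most abundant member, the remaining 8 went from 5.11% to 8.24% of the counts. In bulk vesicle RNA, a change in the cells or vesicles that contribute and a change in miRNA per cell cannot be told apart.

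mmu-let-7i-5p led the family in both libraries. It stood at 61119.9 CPM in pOC and 93530.4 CPM in mOC, which made it the fourth most abundant of all miRNAs in pOC and the second in mOC. It held 54.5% of the family counts in pOC and 53.2% in mOC. mmu-let-7g-5p followed with 20783 CPM in pOC and 30498 CPM in mOC, then let-7c-5p with 16126 and 22366 CPM. These 3 members together account for most of the family in either library, and their order was the same in both.

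The middle of the order changed. mmu-let-7b-5p stood at 6013 CPM in pOC and 7169 CPM in mOC. mmu-let-7f-5p stood at 4590 CPM in pOC, below let-7b-5p, and at 13651 CPM in mOC, above it. For each 100 counts of let-7b-5p there were 76.3 of let-7f-5p in pOC (75.1 to 77.6) and 190.4 in mOC (188.4 to 192.5), a ratio that does not depend on how the libraries are scaled.

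The 4 least abundant members were let-7a-5p, miR-98-5p, let-7d-5p and let-7e-5p. let-7a-5p stood at 1279 CPM in pOC and 2724 CPM in mOC. miR-98-5p, a family member despite its name, stood at 1164 CPM in pOC and 2810.03 CPM in mOC. In pOC these lay in the order let-7a-5p, miR-98-5p, let-7d-5p, each apart from the next beyond counting error. let-7d-5p stood at 998 CPM in pOC and 2749 CPM in mOC. In mOC the order was miR-98-5p, let-7d-5p, let-7a-5p, with neighbours 1.02 and 1.01 times apart and overlapping intervals, so these neighbours do not differ beyond counting error there. let-7e-5p was last in both, at 176 CPM in pOC (165 to 188) and 445 CPM in mOC (429 to 461). All other neighbours in either order had intervals that did not overlap.

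**Figure D1:**
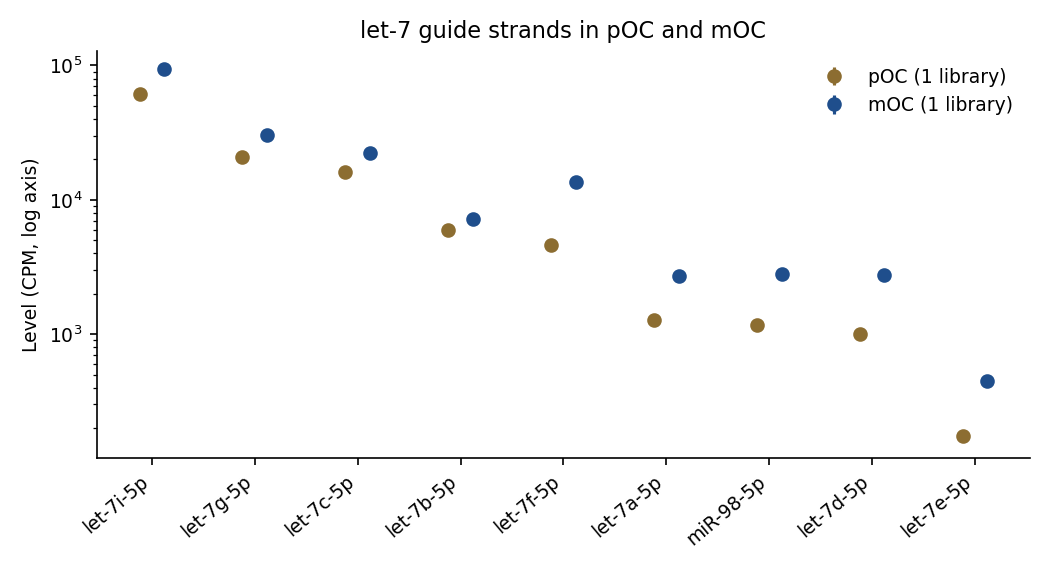
Level of each let-7 guide strand in CPM (log axis), in the pOC library (brown) and the mOC library (blue), with 95% counting intervals that are mostly smaller than the points. let-7i-5p leads at 61119.9 and 93530.4 CPM, let-7e-5p is last at 176 and 445 CPM, and every member lies higher in mOC.

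Compared between the stages, all 9 members were higher in mOC than in pOC, but by unequal amounts. A miRNA was called higher or lower where it differed at least 2-fold, had at least 10 counts over both libraries and had a counting interval that excluded equality. By that rule 5 of the 9 members were called higher and 0 lower, where 8.75% of the 560 miRNAs with enough counts were called higher and 12.3% lower. The members' median log2 ratio of mOC over pOC was 1.09, against 0.04 over those 560. All members had at least 900 counts in each library. Among the 132 miRNAs with that many, a minimum chosen after the values were seen, 9.85% were called higher, 13 miRNAs of which 5 are members, and 3.03% lower. The median log2 ratio of the 123 of these that are not members was 0.07.

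let-7f-5p had the largest difference. It went from 24923 counts in pOC to 95799 in mOC, a 2.97-fold difference once scaled to the library totals (2.93 to 3.02). let-7d-5p had 5420 and 19291 counts, a 2.75-fold difference (2.67 to 2.84). let-7e-5p had 956 and 3121 counts, a 2.53-fold difference with the widest interval of the family (2.35 to 2.72). All 3 lay well above the 2-fold limit, and none of their intervals reached it.

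The other members called were miR-98-5p and let-7a-5p. miR-98-5p went from 6322 to 19720 counts, a 2.41-fold difference (2.35 to 2.48). let-7a-5p had 6946 and 19114 counts, a 2.13-fold difference (2.07 to 2.19) that lies closest to the limit. With upper-quartile scaling its log2 ratio was 0.93, under the limit, which leaves 4 members called.

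The 4 members not called were the 3 most abundant and let-7b-5p. let-7i-5p went from 331907 to 656369 counts, a 1.53-fold difference (1.52 to 1.54). let-7g-5p differed 1.47-fold (1.46 to 1.48) and let-7c-5p 1.39-fold (1.38 to 1.40). let-7b-5p differed least, with 32651 and 50313 counts and a 1.19-fold difference (1.18 to 1.21). Summed, the 5 called members were 2.73-fold higher in mOC (2.70 to 2.76) and the 4 others 1.48-fold higher (1.47 to 1.48). The groups were formed by the 2-fold rule, so sums on either side of that limit follow from it.

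**Figure D2:**
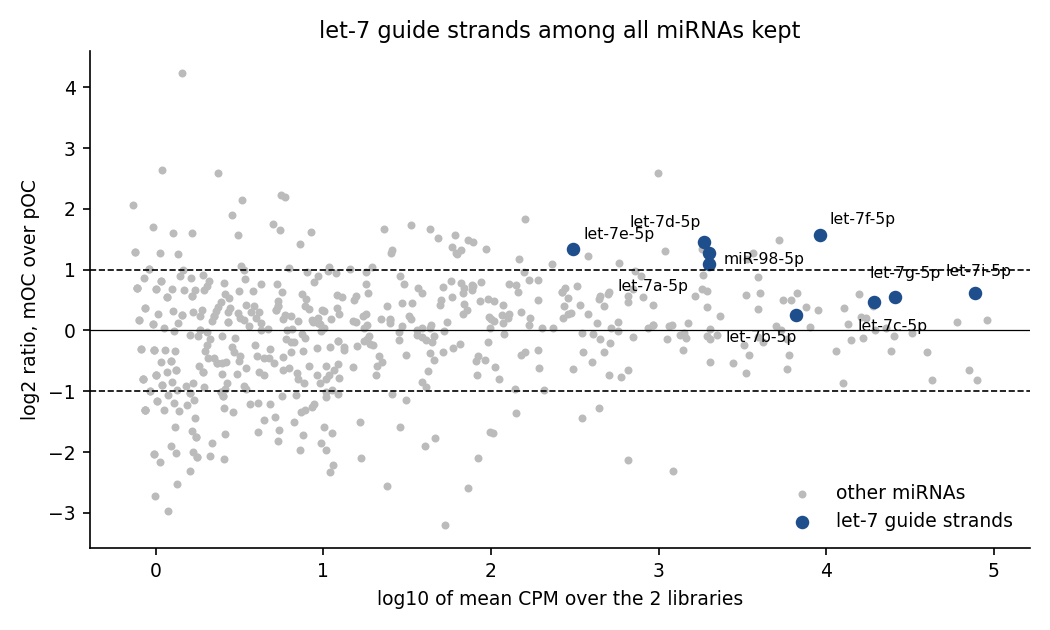
log2 ratio of mOC over pOC against the log10 of the mean level in CPM, for the 560 miRNAs with at least 10 counts over both libraries, with the let-7 guide strands in blue. Dashed lines mark a 2-fold difference. All 9 members lie above 0, and let-7a-5p, let-7d-5p, let-7e-5p, let-7f-5p and miR-98-5p lie above the upper line.

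The make-up of the family therefore differed between the libraries, and this can be read without any scaling between them. let-7f-5p made up 4.09% of the family counts in pOC (4.04 to 4.14%) and 7.76% in mOC (7.71 to 7.81%). let-7d-5p went from 0.889% to 1.56%, miR-98-5p from 1.04% to 1.60% and let-7a-5p from 1.14% to 1.55%. On the other side let-7c-5p went from 14.4% (14.3 to 14.5%) to 12.7% (12.7 to 12.8%) and let-7b-5p from 5.36% to 4.07%. Between let-7a-5p and let-7c-5p, which differ by 1 base, there were 7.93 counts of the first for each 100 of the second in pOC and 12.2 in mOC. The rows of let-7a-5p, let-7b-5p, let-7c-5p, let-7e-5p and let-7f-5p link by 1-base differences. Summed, they held 25.11% of the family counts in pOC and 26.35% in mOC. The part of reads confused among these rows in their separate shifts was not tested.

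The sequences were set against that split after the values were seen. Positions are counted from 1 at the 5′ end, with the base of let-7a-5p first. The called members differ from let-7a-5p by U1A and U16C in let-7d-5p, U9G in let-7e-5p, G12A in let-7f-5p, and G11A and A19U in miR-98-5p. The members not called differ by A17G and A19G in let-7b-5p, A19G in let-7c-5p, G12U and U18C in let-7g-5p, and G12U, A17G, U18C and A19U in let-7i-5p. Each of the 4 members not called thus carries at least 1 of A17G, U18C and A19G, and 0 of the 5 called members does. These substitutions were picked because they follow the split, and A19U, found on both sides, was left out. The pattern therefore describes the split and does not test it. With upper-quartile scaling let-7a-5p, which carries none of them, is not called either. The members' GC content ran from 31.8% in let-7f-5p and miR-98-5p to 45.5% in let-7b-5p. Between these, called and not called members had equal values. let-7a-5p, called, and let-7g-5p, not called, had 36.4%. let-7d-5p and let-7e-5p, called, and let-7c-5p and let-7i-5p, not called, had 40.9%. Among the 297 other miRNAs with a sequence and at least 50 counts in 1 library, the median log2 ratio was 0.30 for the 130 with a GC content of 46% or less and -0.01 for the 167 above it. The part of base composition in the members' ratios was not tested.

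The members called come from a few loci. Coordinates are those of RefSeq on GRCm38.p6, with host genes from GENCODE on the same build. The hairpins Mirlet7a-1 (chr13:48538179-48538272), Mirlet7f-1 (chr13:48537829-48537917) and Mirlet7d (chr13:48536012-48536114) lie on the minus strand in exons of the long noncoding RNA gene 6720427I07Rik, with 261 and 1714 bases between neighbours. Mirlet7f-2 (chrX:151912346-151912428) and Mir98 (chrX:151913214-151913321) lie on the plus strand in an intron of Huwe1, a ubiquitin ligase gene, with 785 bases between them. Mirlet7e (chr17:17830352-17830444) lies on the plus strand in an intron of Spaca6. All 5 called members come from these loci, although let-7a-5p can also come from Mirlet7a-2 (chr9:41536716-41536811), which lies in introns of noncoding genes.

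The members not called come from other places. Mirlet7c-2 (chr15:85706603-85706697) and Mirlet7b (chr15:85707319-85707403) lie in exons of the noncoding gene Lncppara, with 621 bases between them. Mirlet7c-1 (chr16:77599657-77599750) lies in an intron of Mir99ahg, the host gene of miR-99a. Mirlet7g (chr9:106178840-106178927) lies in an intron of Wdr82, and Mirlet7i (chr10:122985640-122985724) overlaps an exon of the pseudogene D630033A02Rik. A mature strand made from several hairpins has 1 row of counts, so the contribution of each locus to let-7a-5p, let-7c-5p and let-7f-5p cannot be told apart.

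The motif GGAG, which LIN28 is known to bind in let-7 loops of mammals, was searched on the transcribed strand between the arms of each hairpin. It was present in 9 of the 12 let-7 and miR-98 hairpins, and in 8.07% of 644 hairpins with both arms annotated. The hairpins without these letters there were Mirlet7b, Mirlet7c-2 and Mir98, which give members both called and not called.

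None of the 3p strands of the same hairpins reached the 2-fold rule. Of the 11 rows of 3p strands, 0 were called higher or lower, where 8.75% of the 560 miRNAs were called higher and 12.3% lower. With so few rows, 0 calls is not read as a difference from those shares. Their median log2 ratio was 0.19. Summed with the shared sequence counted once, they made up 0.297% of the pOC counts and 0.304% of the mOC counts. let-7d-3p supplied most of these, and without it the share was 0.0678% in pOC and 0.0879% in mOC, a 1.30-fold difference (1.24 to 1.35). The lowest ratio was that of let-7c-1-3p, 0.666-fold as abundant in mOC (0.515 to 0.859). The largest difference among them was that of let-7a-1-3p and let-7c-2-3p, whose mature sequences are identical and whose rows both go from 1122 to 2248 counts, a 1.55-fold difference. let-7f-2-3p was 1.54-fold more abundant in mOC (1.33 to 1.78), while let-7f-1-3p, from the other hairpin of the same guide strand, was 0.881-fold as abundant (0.785 to 0.989).

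let-7d changed its dominant strand. The Mirlet7d hairpin is shown with both mature strands in capitals, the 5p strand first.
Mirlet7d: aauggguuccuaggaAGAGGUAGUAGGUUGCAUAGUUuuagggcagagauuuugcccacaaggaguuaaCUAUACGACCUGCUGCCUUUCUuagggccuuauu
In pOC let-7d-3p had 12435 counts and let-7d-5p 5420, so that the 3p strand made up 69.6% of both (69.0 to 70.3%). In mOC let-7d-3p had 15195 counts and let-7d-5p 19291, and the 3p strand made up 44.1% (43.5 to 44.6%). Scaled to the totals, let-7d-3p itself differed little, at 2290 CPM in pOC and 2165 CPM in mOC. The ratio of 5p to 3p counts was 2.91 times as large in mOC as in pOC.

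Only let-7d had a 3p strand above its 5p strand, and only in pOC. For let-7e the 3p share of both strands was 3.92% in pOC (2.80 to 5.32%) and 1.39% in mOC (1.01 to 1.86%), on 39 and 44 counts of let-7e-3p. For let-7f it was 3.29% and 1.25%, with both 3p strands summed. The 5p to 3p ratio was thus 2.89 times as large in mOC for let-7e and 2.69 times for let-7f. For miR-98 it was 1.82 times as large, for let-7g 1.80 times on 55 and 58 counts of let-7g-3p, and for let-7a 1.37 times, with let-7a-1-3p as its 3p strand. Intervals of the 3p share overlapped between pOC and mOC for let-7b, let-7c and let-7i. The let-7c share sums let-7c-1-3p (136 counts in pOC, 117 in mOC) with let-7c-2-3p (1122 and 2248), whose sequence is also that of let-7a-1-3p. These shared counts enter the values of both let-7a and let-7c. Which hairpins they come from cannot be told, so the strand ratios of let-7a and let-7c stay uncertain. The background was 76 hairpins of other miRNAs with at least 50 counts for each strand in a library. In 14 of them (18.4%) the log2 ratio of the 5p strand exceeded that of the 3p strand by at least 1. The reverse held in 11, and the median difference was -0.03. By the same rule the difference was 1.54 for let-7d, 0.87 for miR-98, 0.84 for let-7g, 0.43 for let-7i and 0.02 for let-7b. Only let-7d reached 1 there. let-7e fell short of the count minimum, and let-7a, let-7c and let-7f lack a 3p row named like their 5p row. The 18.4% is therefore no background for the ratios of let-7a, let-7c, let-7e and let-7f.

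**Figure D3:**
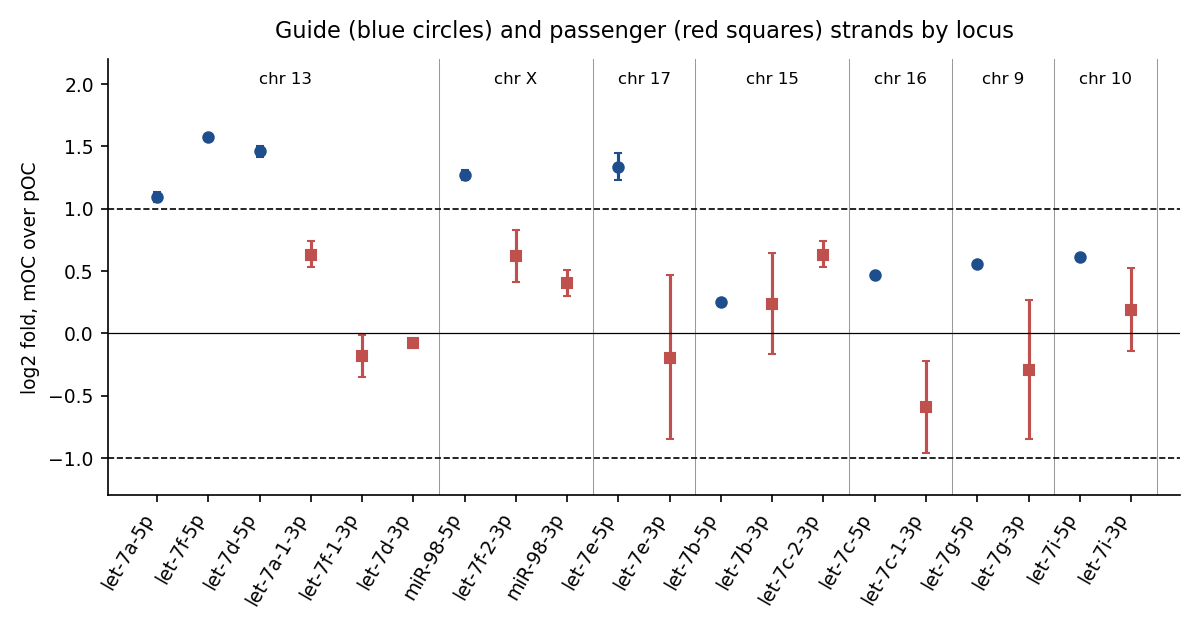
log2 fold of mOC over pOC with 95% counting intervals for the 5p guide strands (blue circles) and the 3p passenger strands (red squares). Strands are grouped by chromosome, with the groups of the called members placed first. let-7a-5p, let-7c-5p and let-7f-5p, which have several hairpins, are drawn once, under 1 of their chromosomes. let-7a-1-3p and let-7c-2-3p show the same counts. The guide strands drawn under chromosomes 13, X and 17 lie above the dashed 2-fold line at 1, and no passenger strand does.

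**Figure D4:**
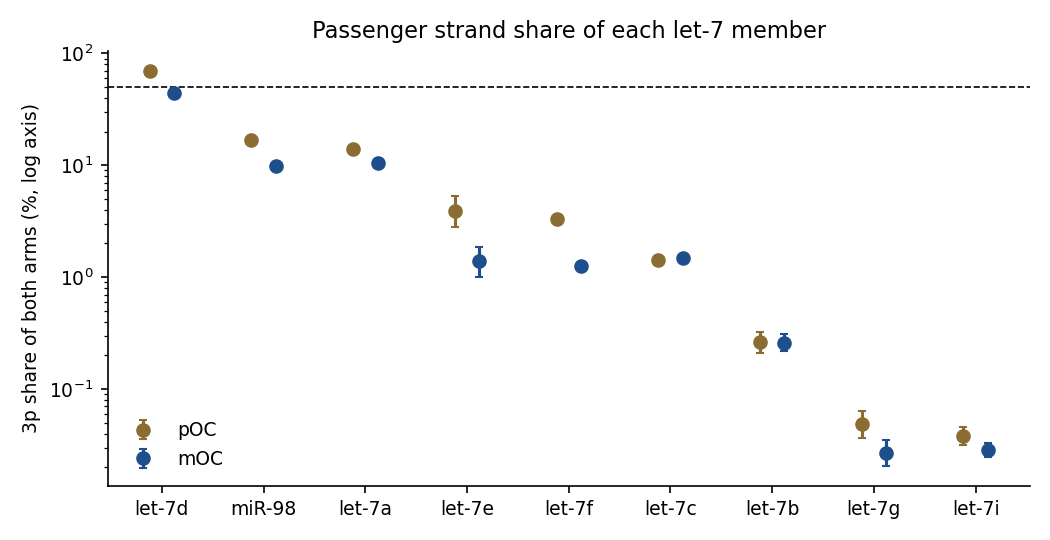
Share of the 3p strand in the counts of both strands (percent, log axis) for each let-7 member in pOC (brown) and mOC (blue), with 95% exact binomial intervals and a dashed line at equal strands. let-7d lies at 69.6% in pOC and 44.1% in mOC, while let-7b, let-7g and let-7i lie below 1% in both. The let-7a and let-7c points share the counts of an identical 3p sequence.

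Strands of the hairpins next to let-7 genes were read as a list of 10, made of miR-99a, miR-99b, miR-100, miR-125a and miR-125b. Of these 0 were called in either direction, where 8.75% of the 560 miRNAs with enough counts were called higher and 12.3% lower. With 10 strands, 0 calls is not read as a difference from those shares. Their median log2 ratio was -0.06. The 0 depends on scaling, since miR-125a-3p stood at -1.13 with upper-quartile scaling and miR-125a-5p at 1.01 with the authors' constants, both past the limit. miR-125a-5p, whose hairpin follows Mirlet7e by 367 bases, was 1.67-fold more abundant in mOC (1.56 to 1.78), against 2.53-fold for let-7e-5p. The other strand of that hairpin, miR-125a-3p, was 0.510-fold as abundant in mOC (0.462 to 0.564), the largest difference in the list. miR-99a-5p, whose hairpin lies 656 bases before Mirlet7c-1, stood at 87280 CPM in pOC and 55393 CPM in mOC, the opposite direction to let-7c-5p, while its other strand miR-99a-3p was 1.47-fold more abundant in mOC (1.26 to 1.72).

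A pair of further rows had the seed GAGGUAG, let-7k (44 counts in pOC, 52 in mOC) and miR-1961 (5 and 8), so the 9 members held nearly all counts with that seed. A further row with the family's name, let-7j, was looked at after its values were seen. It is shown beside let-7i-5p with the base that differs in capitals, G8U counted from let-7i-5p, inside the seed.
let-7i-5p: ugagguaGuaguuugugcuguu
let-7j: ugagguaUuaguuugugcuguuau
let-7j had 28914 counts in pOC and 57109 in mOC, more than let-7f-5p in pOC. For each 100 counts of let-7i-5p there were 8.71 of let-7j in pOC (8.61 to 8.82) and 8.70 in mOC (8.63 to 8.78), so the ratio of these rows was equal within counting error. Whether let-7j reads are reads of let-7i-5p with a changed base was not tested.

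Against the library headed R, the authors' deposited tables place the 2 stages apart. These comparisons share R, so they are given side by side with no test between them. For let-7f-5p the authors' deposited table has a 1.11-fold level in pOC over R and a 3.21-fold level in mOC over R. For miR-98-5p the authors' deposited table has 1.21-fold in pOC and 2.83-fold in mOC, for let-7a-5p 1.12-fold and 2.32-fold, and for let-7e-5p 0.942-fold and 2.31-fold. These 4 members, f, 98, a and e, are near R in pOC and at least 2-fold above it in mOC.

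The other members stayed under 2-fold in both. In the authors' deposited table let-7c-5p was the highest member in pOC over R, at 1.41-fold, and stood at 1.90-fold in mOC. In the authors' deposited table let-7d-5p was the lowest in pOC over R, at 0.682-fold, and stood at 1.82-fold in mOC. The authors' deposited table gives let-7i-5p as 0.825-fold and 1.23-fold, let-7g-5p as 0.813-fold and 1.16-fold, and let-7b-5p as 0.941-fold and 1.09-fold. In mOC, let-7b-5p, let-7g-5p and let-7i-5p thus lay closest to R.

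By the thresholds of the authors' deposited tables, a 2-fold difference in either direction with a p-value under 0.05, 0 of the 9 members were listed as higher in pOC over R, where 6.56% of all 899 miRNAs were, and 0 as lower, where 4.12% were. In mOC over R the authors' deposited table listed 4 of 9 as higher, where 5.78% of all were, and 0 as lower, where 6.23% were. The members' median log2 fold change in the authors' deposited tables was -0.087 in pOC and 0.92 in mOC, against 0.00 and -0.08 over all 899. Over the 132 miRNAs with at least 900 counts in pOC and in mOC, members included, the medians were -0.07 and 0.05. The authors' p-values of pOC over mOC were rebuilt within 1% for 899 of 899 miRNAs by an edgeR exact test with an assumed dispersion of 0.01, so they rest on an assumed spread.

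**Figure D5:**
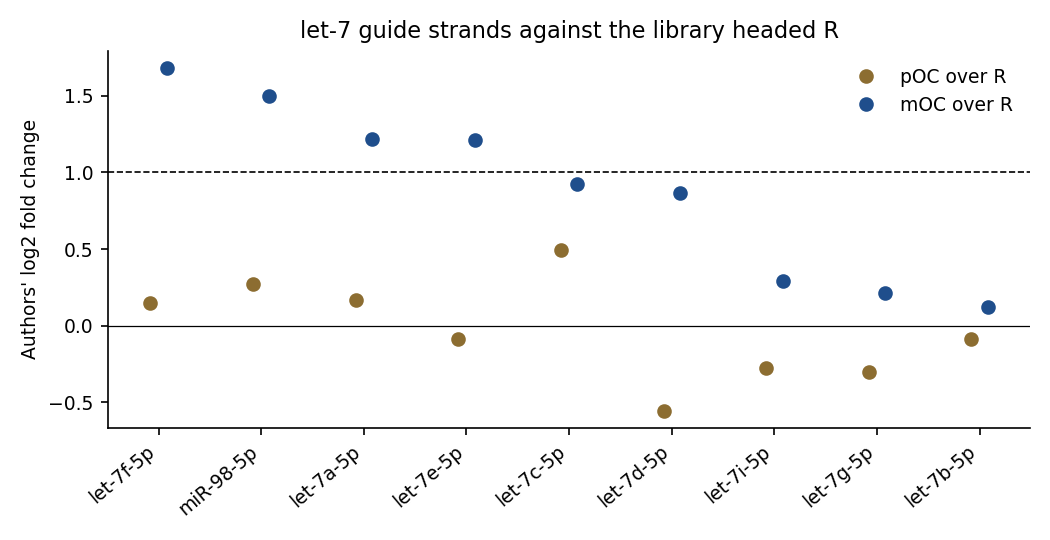
The authors' deposited log2 fold change of each let-7 guide strand in pOC (brown) and in mOC (blue) over the library headed R, with a dashed line at 1. No error is available for these values. let-7f-5p, miR-98-5p, let-7a-5p and let-7e-5p lie above the line in mOC, and all members lie within 0.6 of 0 in pOC.

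miRNAs with a like pattern were sought among 120 that are not members and had at least 1000 counts in pOC and in mOC. Likeness was the distance, over the 2 log2 fold changes over R in the authors' deposited tables, to the medians of the 9 members, and it rests on 3 libraries. The 5 nearest were miR-26b-5p (distance 0.24), miR-32-5p (0.27), miR-26a-5p (0.31), miR-125a-5p (0.32) and miR-674-3p (0.38). Their log2 ratios of mOC over pOC, from the counts, were 1.28, 1.10, 1.48, 0.74 and 0.57. The fold changes used for the choice largely fix these ratios, so the ratios are no separate support for the likeness.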

How the data were processed

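Mature miRNA counts of 2 of the 3 samples, pOC and mOC, were analysed, with columns matched to samples by name. Per the file headers, the deposited values are raw read counts of each miRNA and the authors' normalised counts, treated as a score, which equal raw counts over a library constant. For each comparison the authors deposited a log2 fold change, a linear fold change and a p-value without adjustment. The submitters' processing notes name FastQC, HISAT2, StringTie and GRCm38. The library kit, trimming and handling of reads matching several miRNAs were not stated in the sources used here. Both pairs of rows with identical mature sequences held identical counts. These counts do not show whether such reads were counted in full in each row or split evenly. The 3p sums with the shared sequence counted once assume that they were counted in full. Of 36 per-sample columns, 32 were not used, those of the library headed R and repeats.

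Counts were scaled to library totals, with a pseudocount of 1 count in log2 ratios. Fold intervals are exact Clopper-Pearson intervals of the 2 counts. A count of 0 allows up to 3 counts, 0.552 CPM in pOC and 0.427 CPM in mOC. Stages had a single library, so none was tested against another. Log2 ratios of at least 1 in size, on 10 or more counts in the pair of libraries and with an interval that excluded equality, were called. Alternatives were the TMM and upper-quartile scaling of edgeR 4.0.16, DESeq2 1.42.0 size factors, the authors' constants, totals without the members, other pseudocounts, count minimums and a 1.5-fold limit. Sequences matched 793 of 899 rows. Named miRNAs are the members, the 3p strands of their hairpins, the neighbouring miR-99, miR-100 and miR-125 strands, rows with the same seed, the 5 most abundant miRNAs of each library (for rank only) and the 5 nearest in pattern. Marker miRNAs of cell types are named from a separate list, and let-7j was added after its values were seen. Members and lists were chosen with earlier results of these data known. Python 3.11.15, SciPy 1.17.1 and R 4.3.3 were used.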

Additional observations from a re-analysis of the deposited data

Results flagged for a closer look

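let-7d-5p, let-7e-5p, let-7g-5p, let-7i-5p and let-7b-5p lay on opposite sides of the library headed R at the 2 stages in the authors' deposited tables. The difference was not tested, since each stage has 1 library and both comparisons share R. How often this holds over all miRNAs was not counted, so it is not read as unusual for the family. The log2 fold change in pOC and in mOC over R, from the authors' deposited tables, was -0.55 and 0.87 for let-7d-5p. It was -0.087 and 1.21 for let-7e-5p, and -0.30 and 0.21 for let-7g-5p. It was -0.28 and 0.29 for let-7i-5p, and -0.088 and 0.12 for let-7b-5p, close to 0 on both sides.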

How the results depend on the processing

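Another scaling shifts every log2 ratio of mOC over pOC by 1 amount, which was 0.01 for TMM, -0.01 for DESeq2 size factors, -0.16 for upper quartiles, 0.27 for the authors' constants and 0.11 for totals without the 9 members. The summed members' ratio of 0.65 became 0.66, 0.64, 0.49, 0.92 and 0.76 in that order, and 0.69 without let-7i-5p, a choice made after seeing the data. No called member reversed. The members called higher numbered 5, or 4 with upper quartiles (without let-7a-5p) and 6 at a 1.5-fold limit (with let-7i-5p). Among all miRNAs, 49 were higher and 69 lower. Higher calls numbered 80 with the authors' constants (62.0% of calls against 41.5%, and 50.0% with totals without the members) and 95 at 1.5-fold, lower calls 35 with at least 50 counts in 1 library, and with at least 900 counts in each library 13 were higher and 4 lower. The members' share became 18.3% in pOC and 25.4% in mOC without the 5 most abundant other miRNAs, and 12.7% and 24.0% over the authors' constants. With the 5 members that link by 1-base differences merged (let-7a-5p, b, c, e and f), let-7i-5p stayed first. The merged rows came second, with 25.11% of the family counts in pOC and 26.35% in mOC. Pseudocounts of 0.25 and 5 moved no member beyond its interval. No paired analysis was possible because each group had 1 library. Depth limits the scarce 3p strands most, such as let-7e-3p with 39 and 44 counts.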
